A study of Homo sapiens with 6 samples.

Results

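The insulin-like growth factor (IGF) axis was described here through 9 genes: the binding proteins IGFBP2, IGFBP3, IGFBP4, IGFBP6 and IGFBP7, the receptors IGF1R, IGF2R and INSR, and the adaptor IRS1. They were selected with their levels in these libraries known, because IGFBP3 and IGFBP7 were lower with a hairpin against PCYT2, and they are 9 of the 19655 genes in the deposited tables. All 9 were found by Ensembl identifier in every library. PCYT2 encodes a key enzyme of phosphatidylethanolamine synthesis. RNA-Seq was performed in SW480, an established line of human colorectal cancer cells, infected with lentivirus that carried a short hairpin and then selected with puromycin. The 3 groups were cells with a nontargeting hairpin (shNT), cells with a first hairpin against PCYT2 (shPcyt2-1) and cells with a second one (shPcyt2-2), with 2 libraries each. All groups therefore share the line, the viral vector and the selection, and both knockdown groups were compared with the same pair of shNT libraries. Neither the labels nor the methods say whether the libraries of a group came from separate cultures, so p-values measure only the spread between these samples, which may be technical.

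IGF1 and IGF2 are secreted ligands that act through IGF1R, a receptor tyrosine kinase, while INSR is its close relative for insulin and, in one of its isoforms, for IGF2. The high-affinity binding proteins hold the ligands outside the cell and thereby limit or prolong their access to the receptor, and proteases that cleave them release the ligand. IGF2R, the mannose 6-phosphate receptor, carries IGF2 to the lysosome and does not signal as a kinase. Active receptors phosphorylate IRS1 and IRS2, which recruit PI3-kinase, and AKT downstream of it keeps FOXO transcription factors out of the nucleus. In the intestine, the axis is known for its part in the growth of the epithelium, and loss of imprinting of IGF2 is known from colorectal tumors.

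The values were taken to be FPKM, which correct the fragments of a gene for its length and for library size, so levels can be set beside each other between genes. They sum to between 396467 and 402612 per library. The number of reads is unknown, and the 2 libraries per group limit the precision. PCYT2, the target of the hairpins, was at 11.6 and 13.8 FPKM with shNT, at 7.11 and 7.36 with shPcyt2-1 and at 6.71 and 6.18 with shPcyt2-2. Each knockdown library was thus lower than either shNT library. In a limma fit of log2(FPKM + 1) with Benjamini-Hochberg adjustment over 12756 genes, PCYT2 differed from shNT by -0.73 (standard error 0.10, adjusted p = 0.00205) with shPcyt2-1 and by -0.88 (standard error 0.10, adjusted p = 0.00261) with shPcyt2-2. The remaining level was 57.0% and 50.8% of that in shNT.

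Markers of the cell line and of other cells were examined next. Epithelial keratins were the most abundant markers, with KRT8 at a mean of 3377 FPKM over the 6 libraries. All 12 epithelial and colon markers were listed in at least 1 library, but KRT20, a keratin of differentiated colon cells, was at most at 0.0950 FPKM and CEACAM5, the carcinoembryonic antigen, at most at 0.480. The summed level of these 12 markers was 8214 and 8773 FPKM with shNT, 8434 and 8528 with shPcyt2-1, and 6261 and 6557 with shPcyt2-2. Of the 9 that were tested, 3 were lower with shPcyt2-2 than with shNT, namely KRT8, KRT18 and KRT19 (log2 differences -0.41, -0.45 and -0.44, limma adjusted p = 0.00483, 0.00319 and 0.00546). That is 33.3% of the 9, where 4.74% of all tested genes were lower. Without shPcyt2-2 replicate 1 their differences were -0.38, -0.41 and -0.38 and no longer passed. The other 6 did not pass with shPcyt2-2. For 57.5% of all tested genes the shPcyt2-2 and shNT libraries did not overlap. CDH1, VIL1 and CDX1 lay above shNT in both libraries, at 115%, 110% and 134% of the shNT mean, LGALS4 lay below it in both, at 64.4% (-0.37, limma adjusted p = 0.11), and EPCAM and CDX2 overlapped it, at 108% and 96.0%. CDX2, a transcription factor of intestinal identity, was lower with shPcyt2-1 (-0.65, limma adjusted p = 0.00138), and LGALS4 was lower as well (-0.58, limma adjusted p = 0.0162, lost at -0.53 and -0.40 without shNT replicate 2 or shPcyt2-1 replicate 1). These are 22.2% of the 9, where 10.1% of all genes were lower.

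Of 9 fibroblast markers, 7 were listed and their summed level was 2.28 and 2.48 FPKM with shNT, 3.64 and 4.13 with shPcyt2-1, and 3.80 and 3.61 with shPcyt2-2. LUM was the most abundant of them, at a mean of 1.42 FPKM, and was higher with shPcyt2-1 than with shNT (means 2.21 and 0.826 FPKM, log2 difference 0.81, limma adjusted p = 0.00192). COL1A1, the other one tested, did not pass with either hairpin (0.18 and 0.34, limma adjusted p = 0.272 and 0.0786). Of those too low to be tested, PDGFRB was at 0.364 and 0.507 FPKM with shNT, 0.225 and 0.309 with shPcyt2-1, and 0.795 and 0.739 with shPcyt2-2, and PDGFRA was at 79.0% and 58.9% of shNT with the hairpins. With shPcyt2-1 the markers thus did not move together, and the higher sum lay mostly in LUM. With shPcyt2-2, LUM, COL1A1, DCN and PDGFRB lay above shNT in both libraries, at 149%, 152%, 196% and 176% of its mean. The libraries of these groups did not overlap for 57.5% of all tested genes. DCN was near 0, at 0.0103 and 0.0447 FPKM with shNT and 0.0586 and 0.0493 with shPcyt2-2, and was not tested. PDGFRA lay below shNT, and COL1A2 and THY1 overlapped it. LUM did not pass with shPcyt2-2 against shNT (0.28, limma adjusted p = 0.117), and was lower than with shPcyt2-1 (-0.53, limma adjusted p = 0.00838). COL3A1 and FAP were not listed in any library. The 5 endothelial markers summed to between 0.513 and 0.769 FPKM, with CDH5 the most abundant at a mean of 0.486. Of the 6 leukocyte markers, CD68 had the highest mean, 19.5 FPKM, and PTPRC, the pan-leukocyte antigen, was not listed. The leukocyte markers summed to between 17.3 and 23.8 FPKM. KRT8, KRT18 and KRT19 moved with shPcyt2-2, CDX2 with shPcyt2-1 and the fibroblast sum with both hairpins, and their part in the results below was not tested. In bulk libraries such as these, fewer cells of a type and less RNA per cell cannot be told apart.

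Apart from IGFBP7, the binding proteins held the highest levels of the 9 genes. In shNT the order was IGFBP3, IGFBP4, IGFBP6, IGFBP2, IGF2R, IGFBP7, IGF1R, INSR and IRS1, from a mean of 271 ± 12.4 FPKM (SD, n = 2) for IGFBP3 to 1.82 ± 0.0458 (SD, n = 2) for IRS1. Neighbors in this order did not overlap between their shNT libraries, with the exception of IGFBP7 and IGF1R. IGFBP3 lay above 98.7% of the tested genes in shNT, IGFBP4 above 97.9%, IGF1R above 49.3% and IRS1 above 19.5%. The order differed with shPcyt2-1, where IGFBP4 (171 ± 5.58 FPKM, SD, n = 2) lay above IGFBP3 (130 ± 11.6, SD, n = 2) and IGFBP7 (2.67 ± 0.217, SD, n = 2) lay among INSR (2.54 ± 0.0185, SD, n = 2) and IRS1 (2.43 ± 0.180, SD, n = 2). With shPcyt2-2, IGFBP3 was again first (221 ± 0.386, SD, n = 2) and IGFBP7 stood between IGF2R, which it overlapped, and IGF1R.

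IGFBP3, the main carrier of IGFs in serum and also a protein with actions of its own at the cell surface and in the nucleus, is encoded on the minus strand of chromosome 7 (ENSG00000146674, 45912245 to 45921874 on GRCh38). Its level was 280 and 263 FPKM with shNT, 121 and 138 with shPcyt2-1, and 221 and 220 with shPcyt2-2. Both hairpins thus gave levels below both shNT libraries, and the shPcyt2-2 libraries lay between the other groups. The log2 difference from shNT was -1.06 (standard error 0.070) with shPcyt2-1, or 47.8% of the shNT mean, and -0.30 (standard error 0.070) with shPcyt2-2, or 81.3% of the shNT mean. Over 15 alternative analyses it stayed between -1.15 and -0.97 with shPcyt2-1 and between -0.35 and -0.25 with shPcyt2-2. Since the gene was selected on these values, no p-value is given for them or for any other member, and where members are counted among the called genes, the count is a description.

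IGFBP2 binds IGF2 in preference to IGF1 and is secreted by many carcinoma cells (ENSG00000115457, chromosome 2, 216632828 to 216664436, plus strand). It was at 39.6 and 42.5 FPKM with shNT, at 19.2 and 20.3 with shPcyt2-1, and at 41.8 and 42.9 with shPcyt2-2. The shPcyt2-1 libraries stood apart from the other 4, which overlapped. The log2 difference from shNT was -1.02 (standard error 0.070) with shPcyt2-1, and with shPcyt2-2 it was 0.05 (standard error 0.070), which ranged over the alternatives from -0.01, with median-ratio scaling or without shNT replicate 1, to 0.12 after removal of a trend with GC content and gene length, and was 0.10 without shNT replicate 2. Its neighbor on chromosome 2, IGFBP5, lies 7668 bases away on the opposite strand and was at most at 0.0551 FPKM in any library.

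IGFBP7 binds IGFs with low affinity and has been described as a matrix protein and as a partner of IGF1R itself (ENSG00000163453, chromosome 4, 57030773 to 57110385, minus strand). It was at 7.05 and 10.8 FPKM with shNT, at 2.52 and 2.83 with shPcyt2-1, and at 11.9 and 13.3 with shPcyt2-2. The 3 groups did not overlap, and shPcyt2-1 lay below shNT while shPcyt2-2 lay above it. The log2 difference from shNT was -1.41 (standard error 0.161) with shPcyt2-1, or 29.9% of the shNT mean, and 0.47 (standard error 0.161) with shPcyt2-2, or 141% of it. On the log2 scale, the shNT libraries differed from each other more for IGFBP7 than for the other members. Without shNT replicate 1 the difference was -1.69 with shPcyt2-1 and 0.20 with shPcyt2-2, and without shNT replicate 2 it was -1.13 and 0.75. Between the hairpins, shPcyt2-2 minus shPcyt2-1, it was 1.88 (standard error 0.161).

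Annotated genes on the opposite strand overlap IGFBP7, and 2 of them were listed in the tables. POLR2B, which encodes a subunit of RNA polymerase II, shares 396 bases with it and was at 26.8 and 24.1 FPKM with shNT, 32.4 and 33.5 with shPcyt2-1, and 36.3 and 33.1 with shPcyt2-2. The antisense gene IGFBP7-AS1 was at most at 0.0268. Whether the counting used strand is not given in the sources used here, so reads from the shared bases cannot be told apart. AIRN, antisense to IGF2R, was at most at 0.00741 FPKM. No other gene listed in the tables overlaps a member.

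IGFBP4, an inhibitor of IGF action that the protease PAPPA cleaves, and IGFBP6, which prefers IGF2 strongly over IGF1, differed less between the groups. IGFBP4 (ENSG00000141753, chromosome 17, 40443461 to 40457731, plus strand) was at 184 and 202 FPKM with shNT, 167 and 175 with shPcyt2-1, and 183 and 186 with shPcyt2-2. Its shPcyt2-1 libraries lay below the rest, by -0.17 (standard error 0.063) from shNT on the log2 scale. Over the alternatives this difference ranged from -0.25 with median-ratio scaling to 0.01 once the trend with GC content and gene length was removed, and it was -0.24 without shNT replicate 1 and -0.10 without shNT replicate 2. IGFBP6 (ENSG00000167779, chromosome 12, 53097436 to 53102345, plus strand) was at 55.8 and 67.7 FPKM with shNT, 57.7 and 53.3 with shPcyt2-1, and 64.0 and 60.9 with shPcyt2-2. Here shNT overlapped both knockdown groups, and the log2 differences from shNT were -0.15 and 0.02 (standard error 0.092 for both). Over the alternatives the first ranged from -0.28 without shNT replicate 1 to 0.07 after the removal of the same trend, and was -0.01 without shNT replicate 2. The second ranged from -0.12 without shNT replicate 1 to 0.20 after that removal, and was 0.16 without shNT replicate 2.

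Summed over the 5 binding proteins, the level was 566 and 586 FPKM with shNT, 368 and 390 with shPcyt2-1, and 522 and 524 with shPcyt2-2. The groups did not overlap, and the shPcyt2-1 libraries were the lowest. IGFBP3 made up 47.2% ± 3.26 (SD, n = 2) of this sum in shNT, 34.2% ± 1.69 (SD, n = 2) with shPcyt2-1 and 42.2% ± 0.191 (SD, n = 2) with shPcyt2-2. The share of IGFBP4 was 33.5% ± 1.43 (SD, n = 2) in shNT and 45.2% ± 0.334 (SD, n = 2) with shPcyt2-1, while its own level differed little. IGFBP7 contributed 1.55% ± 0.427 (SD, n = 2) in shNT, 0.705% ± 0.0290 (SD, n = 2) with shPcyt2-1 and 2.40% ± 0.187 (SD, n = 2) with shPcyt2-2.

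**Figure D1:**
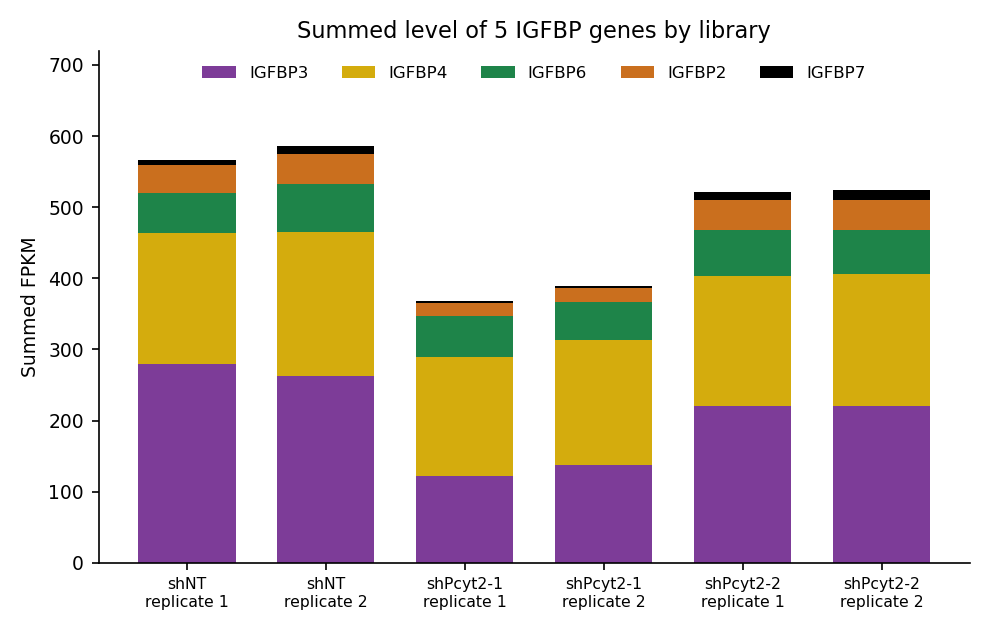
Summed FPKM of 5 IGFBP genes (y axis, linear, from 0) in each of the 6 libraries, with the part of each gene in its own color. The 2 shPcyt2-1 bars reach 368 and 390 against 566 and 586 for shNT, and the IGFBP3 part shows the largest drop in FPKM.

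Among the receptors, IGF1R (ENSG00000140443, chromosome 15, 98648539 to 98964530, plus strand) was at 6.21 and 7.14 FPKM with shNT, 9.27 and 9.11 with shPcyt2-1, and 7.11 and 6.42 with shPcyt2-2. Only the shPcyt2-1 libraries stood apart, on the high side, with a log2 difference from shNT of 0.41 (standard error 0.097), and with shPcyt2-2 it was 0.02 (standard error 0.097). Without shNT replicate 1 these were 0.32 and -0.07, and without shNT replicate 2 they were 0.50 and 0.11. INSR (ENSG00000171105, chromosome 19, 7112255 to 7294034, minus strand) was at 2.88 and 2.99 FPKM with shNT, 2.56 and 2.53 with shPcyt2-1, and 3.19 and 2.76 with shPcyt2-2. It lay slightly lower with shPcyt2-1 than in the other libraries, by -0.15 (standard error 0.103) from shNT, and at 0.01 (standard error 0.103) with shPcyt2-2, where it was -0.06 and 0.09 without replicate 1 and 2 of that hairpin. The ratio of IGF1R to INSR was therefore 2.27 ± 0.161 (SD, n = 2) in shNT, 3.61 ± 0.0180 (SD, n = 2) with shPcyt2-1 and 2.28 ± 0.0643 (SD, n = 2) with shPcyt2-2. This table of whole genes does not separate the isoforms of INSR.

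IGF2R (ENSG00000197081, chromosome 6, 159969099 to 160113507, plus strand), which clears IGF2, was at 10.9 and 11.96 FPKM with shNT, 15.0 and 13.5 with shPcyt2-1, and 14.4 and 11.7 with shPcyt2-2. The shPcyt2-1 libraries lay above shNT, whereas the shPcyt2-2 libraries overlapped both groups, and the log2 differences from shNT were 0.29 and 0.18 (standard error 0.109 for both). The latter rested on single libraries, at 0.04 without shPcyt2-2 replicate 1 and 0.32 without shPcyt2-2 replicate 2. IRS1 (ENSG00000169047, chromosome 2, 226731317 to 226799759, minus strand), the adaptor that couples the receptors to PI3-kinase, was at 1.86 and 1.79 FPKM with shNT, 2.55 and 2.30 with shPcyt2-1, and 2.17 and 1.86 with shPcyt2-2. Its log2 differences from shNT were 0.28 and 0.09 (standard error 0.107 for both), and the lower shPcyt2-2 library was nearly level with the higher shNT library. Without shPcyt2-2 replicate 1 or 2 the second difference was 0.02 and 0.17. On the scale of log2(FPKM + 1), changes of genes as low as IRS1 and INSR are understated.

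At the threshold used for all genes, a limma adjusted p under 0.05, 1 of the 9 members (IGF1R) was higher and 3 (IGFBP2, IGFBP3 and IGFBP7) were lower with shPcyt2-1, where 16.5% of the 12756 genes were higher and 10.1% lower. With shPcyt2-2 the single member past it was IGFBP3, on the lower side, where 7.69% of all genes were higher and 4.74% lower. Between the hairpins, 3 members (IGFBP2, IGFBP3 and IGFBP7) were higher with shPcyt2-2 and 1 (IGF1R) lower, against 12.9% and 14.2%. The libraries of the compared groups did not overlap for 8, 3 and 8 of the 9 members in these comparisons, and for 69.0%, 57.5% and 67.3% of all tested genes. Nothing is read from these counts, because the members were selected on the contrasts with shNT. The median member difference was -0.15, 0.02 and 0.16, beside a median over all tested genes of 0.07, 0.04 and -0.02. Median-ratio scaling moved the split of all calls toward lower ones, from 62.0% to 44.7% higher for shPcyt2-1 and from 61.9% to 46.5% for shPcyt2-2. Under that scaling 1 member was higher and 4 were lower with shPcyt2-1, and 1 was lower with shPcyt2-2.

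To show the sequence from which the members are transcribed, windows before annotated transcript starts were taken from RefSeq (GRCh38.p14), which held at least 1 window for 8 of the 9 genes and 3 for IGFBP2. Motifs were searched on both strands in the 250 bases before each start, and overlapping matches were counted. The GC box, the type of site that SP1 binds, was searched as GGGCGG. For the element at which TBP sits near many starts, the TATA box, the letters were TATAAA. The core of the site of TEAD factors was searched as GGAATG. Of these, the stretches shown are those of IGFBP3 and IGFBP2, which were low with shPcyt2-1, and IGF1R, which was high with it. The stretch of IGFBP4, which stood next to IGFBP3 in level in shNT and differed little, is shown too. Bases in annotated exons were left out, which took 2 bases from IGFBP3 and 25 from IGFBP2. The stretches of IGFBP3 and IGFBP2 lie inside the gene bounds given above, downstream of the start given there. No rule chose among the 3 windows of IGFBP2, and the one shown was picked with its base content known. The stretches are chr7:45921275-45921522 (minus strand), chr2:216633170-216633394 (plus), chr17:40443200-40443449 (plus) and chr15:98648289-98648538 (plus). Each is written 5′ to 3′ on the strand of its gene, with matches in capitals.
IGFBP3: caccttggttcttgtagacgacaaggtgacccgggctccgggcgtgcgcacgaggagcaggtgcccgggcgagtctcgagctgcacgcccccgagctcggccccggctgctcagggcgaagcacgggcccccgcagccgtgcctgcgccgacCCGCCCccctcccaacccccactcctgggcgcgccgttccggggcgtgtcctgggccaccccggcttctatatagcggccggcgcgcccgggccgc
IGFBP2: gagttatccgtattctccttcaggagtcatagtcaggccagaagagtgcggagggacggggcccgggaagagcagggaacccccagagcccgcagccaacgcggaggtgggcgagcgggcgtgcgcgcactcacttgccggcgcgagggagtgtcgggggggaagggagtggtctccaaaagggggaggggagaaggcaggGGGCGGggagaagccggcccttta
IGFBP4: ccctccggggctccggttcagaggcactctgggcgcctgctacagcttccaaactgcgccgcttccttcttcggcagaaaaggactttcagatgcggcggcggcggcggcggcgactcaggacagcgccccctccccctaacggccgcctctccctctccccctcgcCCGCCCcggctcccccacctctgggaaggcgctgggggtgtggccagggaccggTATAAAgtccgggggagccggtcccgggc
IGF1R: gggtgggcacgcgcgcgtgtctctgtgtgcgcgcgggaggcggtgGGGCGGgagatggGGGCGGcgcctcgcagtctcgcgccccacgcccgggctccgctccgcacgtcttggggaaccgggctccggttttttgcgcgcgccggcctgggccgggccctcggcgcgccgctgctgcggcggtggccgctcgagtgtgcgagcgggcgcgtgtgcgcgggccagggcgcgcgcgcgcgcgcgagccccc

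The full windows shown for IGFBP3, IGFBP2, IGFBP4 and IGF1R held 76%, 69.2%, 71.6% and 81.2% G and C, beside a median of 58% over 35116 windows of the same length. The other windows of IGFBP2 held less, 56.8% and 56.4%, with 7 and 4 CpG dinucleotides. In the windows shown, CpG dinucleotides numbered 32, 22, 24 and 48, beside a median of 11. The IGFBP3 window held 2 GC boxes, of which the second reaches into the exon and is not in the printed stretch, IGFBP2 held 1, IGFBP4 held 1 and IGF1R held 2. At least 1 GC box was present in 42.6% of all windows. IGFBP4 had a TATA box, which 10.7% of windows hold, and none of these 4 windows contained the TEAD core, which 11.9% of windows hold. Of the other members, IRS1 had 1 TEAD core, and IGFBP6 had 1 in a window of which 231 bases lie in annotated exons, so that the match is in an exon. IRS1, IGF2R and INSR had 4, 6 and 4 GC boxes. A match is a description of the letters in this window only.

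The genes whose pattern over the 6 libraries was most like that of IGFBP3 or IGFBP7 were found by the smallest root mean square difference in log2(FPKM + 1), after each gene was centered on its mean. For IGFBP3 they were AMN, KLF2, ADAMTS8, SULT2B1 and WNT4, with root mean square differences of 0.066, 0.067, 0.076, 0.085 and 0.099. AMN, a partner of the intestinal vitamin B12 receptor, was at 24.5 and 24.2 FPKM with shNT, 10.6 and 12.3 with shPcyt2-1, and 21.6 and 22.0 with shPcyt2-2. KLF2, a Krüppel-like transcription factor, was at 7.28 and 6.90, 2.72 and 3.35, and 5.58 and 6.47 FPKM in the same order. Both were lowest with shPcyt2-1, with shPcyt2-2 between that group and shNT, as IGFBP3 was.

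For IGFBP7 the nearest were CD70, CDA, SPIB, MYBPC2 and SAA1, with root mean square differences of 0.143, 0.178, 0.215, 0.220 and 0.230. CD70, a ligand of the TNF family, was at 3.18 and 3.82 FPKM with shNT, 0.752 and 0.678 with shPcyt2-1, and 5.31 and 4.76 with shPcyt2-2. CDA, cytidine deaminase, was at 29.1 and 29.3, 10.2 and 12.3, and 36.1 and 41.9 FPKM. In both, shPcyt2-2 lay above shNT and shPcyt2-1 below it. When Pearson's correlation was used as the measure of likeness in place of the root mean square difference, 0 of the 5 genes were shared for IGFBP3 and 0 of 5 for IGFBP7, so the names depend on the measure. With 6 libraries in 3 groups, all such patterns rest on 3 group means.

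The rest of the pathway was described with 87 other genes in 8 lists by role, of which 66 were abundant enough to be tested. With shPcyt2-1, 15 were higher and 6 lower than with shNT at an adjusted p under 0.05 (22.7% and 9.09% of the 66, where 16.5% and 10.1% of all genes were higher and lower). With shPcyt2-2, 11 were higher and 3 lower (16.7% and 4.55%, against 7.69% and 4.74%). Between the hairpins, 16 were higher and 15 lower with shPcyt2-2 (24.2% and 22.7%, against 12.9% and 14.2%). The median difference of the 66 genes was 0.05, 0.16 and 0.10 in these comparisons, beside 0.07, 0.04 and -0.02 for all genes. With median-ratio scaling the splits were 13 and 13, 9 and 4, and 18 and 13. In each comparison the counts were lower when any library of the compared groups was left out. Such fits also estimate the spread from fewer libraries, and the cause of the lower counts was not tested.

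Of the ligands and their carrier, IGF2 was the abundant one, at 47.4 and 51.6 FPKM with shNT, 53.4 and 53.5 with shPcyt2-1, and 48.1 and 50.7 with shPcyt2-2. It did not pass the test in any comparison, with log2 differences from shNT of 0.11 and 0.00 (standard error 0.068, limma adjusted p = 0.246 and 0.992), but did for shPcyt2-1 once the trend with GC content and length was removed (0.27, limma adjusted p = 0.00682). Its reads may be shared with the readthrough gene INS-IGF2, so its level is uncertain. IGF1 was at 3.69 and 3.63 FPKM with shNT, 2.35 and 2.80 with shPcyt2-1, and 6.84 and 5.09 with shPcyt2-2. The groups were fully separate and ran in the same order as those of IGFBP7. IGF1 rose with shPcyt2-2 (0.57, standard error 0.133, limma adjusted p = 0.0282), and its difference with shPcyt2-1 did not pass (-0.39, limma adjusted p = 0.0598) but did with median-ratio scaling (-0.45, limma adjusted p = 0.0268). Without either shNT library or without shPcyt2-2 replicate 1 the former was between 0.38 and 0.58 and no longer passed. Between the hairpins IGF1 differed by 0.95 (standard error 0.133, limma adjusted p = 0.00134). INS and IGFALS, the acid-labile subunit of the serum complex, were at or below 0.0493 and 0.629 FPKM and were not tested.

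The list of other binding proteins and related genes had 5 tested members of 11, of which 1 rose and 1 fell with shPcyt2-1 and 1 fell with shPcyt2-2. Each is 20% of the 5, beside 16.5% higher and 10.1% lower of all genes with shPcyt2-1 and 4.74% lower with shPcyt2-2. IGFBP1, which lies 18576 bases from IGFBP3 on chromosome 7 and is read from the other strand, fell with both hairpins, from 8.14 and 7.36 FPKM in shNT to 6.09 and 5.40 with shPcyt2-1 (-0.38, limma adjusted p = 0.0442) and 4.63 and 5.85 with shPcyt2-2 (-0.49, limma adjusted p = 0.0301). Both calls were lost when single libraries were left out, with values of -0.45 to -0.30 without any 1 library of shNT or shPcyt2-1 for the former, and of -0.56 to -0.35 without either shNT library or shPcyt2-2 replicate 1 for the latter. CCN2, a matricellular protein, rose with shPcyt2-1 from 1.65 and 1.46 FPKM to 3.91 and 3.29 (0.85, standard error 0.121, limma adjusted p = 0.00239). It was at 2.18 and 1.76 with shPcyt2-2 (0.21, limma adjusted p = 0.259). CCN1, of the same family, was not past the threshold with either hairpin (-0.15 and 0.38, limma adjusted p = 0.364 and 0.0643). IGFBPL1 and KAZALD1 did not pass either, at means of 2.95 and 14.2 FPKM over the 6 libraries, and ESM1, CCN3, CCN5 and CCN6 had means of at most 0.431 and were not tested, with CCN4 not listed. Among these, CCN6 was at 0.347 and 0.202 FPKM with shNT and 0.543 and 0.684 with shPcyt2-1, and CCN3 at 0.155 and 0.266 and at 0.0941 and 0.120.

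Many of the proteases that cleave the binding proteins were near 0 in these cells. PAPPA and PAPPA2, pregnancy-associated plasma proteins that cleave binding proteins, IGFBP4 and IGFBP5 among them, had means of 0.00450 and 0.0257 FPKM. ADAM12 and ADAM28 were equally near 0, while MMP3 was not listed. The protease inhibitor STC2 was abundant, at 42.9 and 40.4 FPKM with shNT, 40.4 and 41.5 with shPcyt2-1, and 47.4 and 49.8 with shPcyt2-2. It did not pass against shNT (-0.03 and 0.22, limma adjusted p = 0.797 and 0.0625). HTRA1, a secreted serine protease, fell with shPcyt2-1 from 6.42 and 6.67 FPKM to 4.29 and 3.996 (-0.55, standard error 0.091, limma adjusted p = 0.00402), and was at 6.28 and 6.48 with shPcyt2-2. ADAM9, a membrane protease, rose with both hairpins, from 2.63 and 2.31 FPKM to 4.77 and 4.06 with shPcyt2-1 (0.64, limma adjusted p = 0.00503) and to 4.34 and 3.88 with shPcyt2-2 (0.56, limma adjusted p = 0.0173). The latter value was 0.49 and no longer passed without shNT replicate 2 or without shPcyt2-2 replicate 1. CTSD, a lysosomal aspartic protease, had a mean of 133 FPKM and did not pass against shNT. STC1 and MMP7 had means of 0.0949 and 0.245 and were not tested. With shPcyt2-1 MMP7 lay above shNT, at 0.576 and 0.483 FPKM against 0.151 and 0.0429, and STC1 lay below it, at 0.0650 and 0.0346 against 0.152 and 0.0980. Both overlapped shNT with shPcyt2-2. The list thus had 1 higher and 1 lower with shPcyt2-1 and 1 higher with shPcyt2-2, of 4 tested genes out of 11, or 25% for each, beside 16.5%, 10.1% and 7.69% of all genes.

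Other receptors and partners of the binding proteins at the surface or in the nucleus were tested for 9 of 11 genes. With shPcyt2-1, 4 rose and 2 fell (44.4% and 22.2%, beside 16.5% and 10.1% of all genes), a split that turned to 2 and 4 with median-ratio scaling, and their median difference was 0.19, beside 0.07 for all genes. ITGB1, the integrin beta 1 chain, rose from 67.4 and 59.8 FPKM to 114 and 111 (0.82, standard error 0.079, limma adjusted p = 0.000578), and CAV1, the caveolin, from 5.98 and 4.40 to 7.97 and 9.31 (0.65, standard error 0.131, limma adjusted p = 0.00883). RXRA, the retinoid X receptor to which IGFBP3 binds, fell from 17.6 and 19.3 to 12.9 and 11.8 (-0.54, standard error 0.083, limma adjusted p = 0.00307). With shPcyt2-2, 1 rose and 1 fell (11.1% each, beside 7.69% and 4.74%), and the median was 0.01, beside 0.04. ITGA5, the integrin alpha 5 chain, rose from 30.8 and 30.9 to 47.4 and 51.8 (0.67, standard error 0.069, limma adjusted p = 0.00199), and with shPcyt2-1 it was at 26.0 and 26.5 (-0.22, limma adjusted p = 0.0411, lost without any 1 library of shNT or shPcyt2-1, at -0.24 to -0.21). DDR1, a collagen receptor kinase that interacts with IGF1R, fell with shPcyt2-2 from 8.77 and 7.92 to 3.23 and 3.31 (-1.13, standard error 0.093, limma adjusted p = 0.000603), and with shPcyt2-1 it was at 6.81 and 7.04 (-0.24, limma adjusted p = 0.0883). Under median-ratio scaling the latter difference passed (-0.31, limma adjusted p = 0.0356).

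Adaptors and enzymes that act at the receptor were tested for 15 of 16 genes, and 3 rose and 1 fell with shPcyt2-1 while 2 rose with shPcyt2-2. These are 20% and 6.67% of the 15 with shPcyt2-1, near the 16.5% and 10.1% of all genes, and 13.3% higher with shPcyt2-2, beside 7.69%. Their median differences were 0.08 and 0.18, beside 0.07 and 0.04 for all genes. The gene that fell with shPcyt2-1 was IRS2, from 8.95 and 9.26 FPKM to 6.92 and 7.58 (-0.29, limma adjusted p = 0.0368). With shPcyt2-2 IRS2 was at 9.16 and 9.63 (0.04, limma adjusted p = 0.786). PIK3R3, a regulatory subunit of PI3-kinase, rose with shPcyt2-1 from 0.867 and 1.20 FPKM to 2.24 and 1.87 (0.59, standard error 0.131, limma adjusted p = 0.0129). Without shNT replicate 1 or shPcyt2-1 replicate 1 it was 0.47 and 0.50 and no longer passed. Inhibitors of receptor signaling were tested for 12 of 14 genes, of which 2 rose with each hairpin (16.7%, beside 16.5% and 7.69% of all genes). The median differences of the list were 0.08 for both. With both hairpins the genes that rose were PTPN1 and CBL. The differences were 0.32 and 0.31 for PTPN1 (limma adjusted p = 0.0181 and 0.0329). For CBL they were 0.31 and 0.40 (limma adjusted p = 0.0227 and 0.0179). SOCS3, a feedback inhibitor, was at 0.846 and 0.913 FPKM with shNT, 0.895 and 0.566 with shPcyt2-1, and 1.51 and 1.48 with shPcyt2-2, and did not pass against shNT with either (-0.13 and 0.41, limma adjusted p = 0.464 and 0.058).

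The 3 IGF2 mRNA-binding proteins, which control the stability and translation of IGF2 and other mRNAs, differed from each other. IGF2BP1 rose with shPcyt2-1 from 7.85 and 8.26 FPKM to 12.6 and 11.96 (0.55, standard error 0.085, limma adjusted p = 0.00325) and was at 7.41 and 6.95 with shPcyt2-2. IGF2BP3 rose with shPcyt2-2 from 9.17 and 8.39 to 13.2 and 10.9 (0.41, limma adjusted p = 0.0474), a call that was lost without either shNT library or shPcyt2-2 replicate 1 (0.28 to 0.47). IGF2BP2 was at 18.7 and 16.5 with shNT, 15.1 and 14.6 with shPcyt2-1, and 14.4 and 14.6 with shPcyt2-2, and did not pass (-0.23 and -0.26, limma adjusted p = 0.069 and 0.0662). With median-ratio scaling it was lower with both hairpins (-0.30 and -0.32, limma adjusted p = 0.0305 and 0.0422).

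Of the FOXO factors and genes known as their targets, 16 of 17 were tested, and 3 rose and 1 fell with each hairpin. These are 18.75% and 6.25% of the 16, near the 16.5% and 10.1% of all genes with shPcyt2-1, and beside 7.69% and 4.74% with shPcyt2-2. The median differences of the list were 0.01 and 0.15, beside 0.07 and 0.04 for all genes. With shPcyt2-1, SOD2, the mitochondrial superoxide dismutase, rose from 10.5 and 11.3 FPKM to 20.7 and 18.4 (0.78, standard error 0.095, limma adjusted p = 0.00128). BCL2L11, which encodes the proapoptotic BIM, rose from 7.06 and 7.10 to 12.5 and 12.2 (0.72, standard error 0.081, limma adjusted p = 0.00107), and CITED2, a transcriptional coactivator, from 3.83 and 3.91 to 6.18 and 7.46 (0.68, standard error 0.110, limma adjusted p = 0.00383). FOXO6 itself fell from 2.74 and 3.26 to 1.50 and 1.53 (-0.67, standard error 0.123, limma adjusted p = 0.00618). With shPcyt2-2, SOD2 was at 11.6 and 10.2, BCL2L11 at 8.24 and 8.63, CITED2 at 4.21 and 4.71 and FOXO6 at 2.13 and 2.75, and none of these passed. CDKN1B and TXNIP rose with shPcyt2-2 (0.35 and 0.44, limma adjusted p = 0.035 and 0.0293). GADD45A fell with it (-0.25, limma adjusted p = 0.0312). Under median-ratio scaling, 2 genes of the list rose and 1 fell with this hairpin. SESN1, a stress-induced regulator of mTORC1, rose with shPcyt2-2 from 1.71 and 1.67 to 2.68 and 2.50 (0.41, limma adjusted p = 0.035), and this call was lost without any 1 of the 6 libraries (0.38 to 0.45). PDK4, a kinase of pyruvate dehydrogenase, was at 0.716 and 0.755 with shNT, 0.632 and 0.386 with shPcyt2-1, and 1.31 and 1.19 with shPcyt2-2, and did not pass against shNT (-0.21 and 0.38, limma adjusted p = 0.219 and 0.0671).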

How the data were processed

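The authors deposited 1 table per library with a value per Ensembl identifier, which was read as FPKM from the values (not whole numbers, only genes above 0 listed). TPM over part of the genes cannot be told apart from it. Library preparation and sequencing were done by a service provider, and 2 library kits appear in the labels with no statement of the libraries each served. The submitters' processing notes name the builds GRCh38, GRCm38 and mm10 without a role, and the aligner, the annotation and the use of strand are not given in the sources used here. The study's methods name a package for counts. The tables hold none, so limma was used. Since reads per library are unknown, counting intervals are not given.

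The tables hold 21539 identifiers. Repeated rows of 115 identifiers were summed, and 1045 groups of identifiers whose values were the same were joined, leaving 19655 genes. Positions and symbols came from GENCODE release 29. The 12756 genes with a mean of at least 0.5 FPKM were fitted with limma 3.58.1 (R 4.3.3) on log2(FPKM + 1), with 3 groups and a mean-variance trend, and p-values were adjusted by Benjamini-Hochberg over all 12756 in each of 3 comparisons. A difference on this scale understates the change of low genes. The fit was tested on simulated data. There, a change of 0.5 was recovered for 42% of changed genes in shPcyt2-1 against shNT and for 41% in shPcyt2-2 against shNT. For a change of 1 the shares were 97% and 94%, so the smaller change was often missed there. The simulation changed few genes, and by the same amount with both hairpins. It gave 146 and 142 calls in these comparisons, where the data gave 3400 and 1585. The shares therefore need not hold for the data. The 9 members, the lists and the comparisons were chosen with earlier results of these data known. Named are PCYT2, the members, all genes of the lists of ligands, other binding proteins, proteases and IGF2 mRNA-binding proteins, genes of the other lists past the threshold by at least 0.5 on the log2 scale, the most abundant marker of each cell type, overlapping genes and the 5 genes nearest in pattern to IGFBP3 and IGFBP7. KRT18, KRT19, CDX2, LGALS4 and the other markers, and the neighbor IGFBP5, were named outside that rule, after their values were seen. So were IRS2, PTPN1, CBL, CDKN1B, TXNIP and GADD45A. Figures were drawn with matplotlib 3.10.9.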

Additional observations from a re-analysis of the deposited data

Results flagged for a closer look

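IGFBP7 lay on opposite sides of shNT with the hairpins. Both shPcyt2-1 libraries lay below both shNT libraries (log2 difference -1.41) and both shPcyt2-2 libraries lay above them (0.47). The latter value was not past the threshold and was 0.20 without shNT replicate 1 and 0.75 without shNT replicate 2. As the gene was selected on its values, the difference between the hairpins (1.88) is a description, with no p-value. PCYT2 itself differed from shNT by -0.73 and -0.88 with the same hairpins.

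Of the 66 tested genes of the pathway lists, 16 were higher and 15 lower with shPcyt2-2 than with shPcyt2-1 (limma adjusted p under 0.05, 2 libraries each), where 12.9% and 14.2% of all genes were. The 19 given here are those named by rule, and since some lists were named by their calls, that number partly follows from the choice. Higher with shPcyt2-2 were IGF1 (0.95), ITGA5 (0.89), SESN1 (0.61), PDK4 (0.58), SOCS3 (0.53), CCN1 (0.53), HTRA1 (0.52), FOXO6 (0.45), RXRA (0.39), CTSD (0.29) and STC2 (0.24). Lower were DDR1 (-0.89), SOD2 (-0.79), IGF2BP1 (-0.70), CCN2 (-0.63), ITGB1 (-0.62), CITED2 (-0.51), BCL2L11 (-0.50) and CAV1 (-0.44). Calls were lost without 1 library of the hairpins for CCN1 (0.42 to 0.44, replicate 1 of either), STC2 (0.21 to 0.28, any of the 4), CTSD (0.24 to 0.31, either of shPcyt2-1 or shPcyt2-2 replicate 1), CAV1 (-0.46 to -0.34, either of shPcyt2-2 or shPcyt2-1 replicate 2), RXRA (0.33 to 0.37, replicate 2 of either), SOCS3 (0.40 to 0.53, shPcyt2-1 replicate 2 or shPcyt2-2 replicate 1), FOXO6 (0.32 to 0.45, either of shPcyt2-1 or shPcyt2-2 replicate 2), PDK4 (0.46, shPcyt2-1 replicate 2) and CITED2 (-0.45 to -0.40, shPcyt2-1 replicate 2 or shPcyt2-2 replicate 1).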

How the results depend on the processing

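The 15 alternatives were other pseudocounts (0.1 and 0.5), no expression limit or a mean of at least 1, median-ratio scaling, no mean-variance trend, the replicate block, the highest of repeated rows, each library left out, and removal of the trend with GC content and length, which was chosen after seeing the data. Of 42 named calls of PCYT2 and the pathway genes, 24 were kept in all 15 and none reversed. The calls of CDX2 and LUM for shPcyt2-1 against shNT were kept too, and those of KRT8, KRT18, KRT19 and LGALS4 were lost in 2 or 3. Some genes passed only under an alternative: besides those given above, IGFBPL1 and KRT19 for shPcyt2-1, STC2, CTSD, ITGB1 and SOCS3 for shPcyt2-2 and IGF2, IGF2BP3 and PCYT2 between the hairpins. The cause of a lost call was not tested. The calls of IRS2, PTPN1, CBL, CDKN1B, TXNIP and GADD45A are not among the 42.

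Without the expression limit, where 19655 genes were fitted, the genes past the threshold numbered 1844 rather than 3400 for shPcyt2-1 against shNT (13 rather than 21 on the pathway lists) and 124 rather than 1585 for shPcyt2-2 (2 rather than 14), and 20 rather than 31 genes of the lists differed between the hairpins. Without the mean-variance trend they were 1027 for shPcyt2-2 (8 on the lists). With each library left out, the calls for shPcyt2-1 ranged from 1147 (without shPcyt2-1 replicate 1) to 3362 (lists 12 to 23), for shPcyt2-2 from 125 (without shPcyt2-2 replicate 1) to 1893 (lists 2 to 10), and between the hairpins from 1662 (without shPcyt2-1 replicate 1) to 3785 (lists 16 to 32). In these fits the lone library of a group was assumed to vary like the others.

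The labels do not say whether equal replicate numbers pair the libraries, and the main fit did not pair them. Over genes, the replicate differences of shNT correlated with those of shPcyt2-1 at 0.0027 and with those of shPcyt2-2 at 0.0619. Those of the 2 hairpins correlated at 0.191, so a shared replicate effect is not excluded. With the replicate block 3884, 2029 and 3869 genes passed in the 3 comparisons, rather than 3400, 1585 and 3463. Of these, 22, 14 and 34 were on the lists, rather than 21, 14 and 31. Of the genes nearest to IGFBP3 and IGFBP7, 0 and 0 were shared when Pearson's r replaced the root mean square difference. The 2 libraries per group and an unknown depth limit all values.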
